A study of Mus musculus with 12 samples.

Results

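The unfolded protein response and the integrated stress response were followed through 36 genes in whole somatosensory cortex of mouse pups exposed to ethanol. The genes were chosen by name and by known role, with earlier results of these data known. They run from the sensors of stress to the chaperones and enzymes that these control. All 36 were found among the 24452 gene symbols of the count files (50 of 35840 transcripts). Counts of the transcripts of a symbol were summed, and 14739 symbols, with all 36 members among them, were retained by the filter on low counts. The study asked how ethanol exposure that triggers cell death in the neonatal brain changes gene expression, and whether p53 takes part. Stranded total RNA-Seq was run on 12 libraries, 3 from each of 4 groups. These were wild-type (WT) mice given saline, WT mice given ethanol, p53 KO mice given saline and p53 KO mice given ethanol. All were C57BL/6 males aged 7 days, injected intraperitoneally and then injected again, and cortex was taken 8 hours after the second injection. The KO line carries the Trp53tm1Tyj allele in every cell of the body, and WT and KO pups came from matings of heterozygotes. Part of the cortex samples were cut by laser microdissection and part by hole punch, and which library was cut in which way could not be read from the labels. Replicate numbers only name the libraries, and the labels do not say from which litter a pup came, so p-values measure the spread between these libraries.

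The endoplasmic reticulum (ER) folds secreted and membrane proteins. When unfolded protein accumulates there, the sensors IRE1-alpha (Ern1), ATF6 (Atf6) and PERK (Eif2ak3) raise the output of chaperones, of folding enzymes and of the machinery that removes misfolded protein. PERK and the kinases HRI (Eif2ak1), PKR (Eif2ak2) and GCN2 (Eif2ak4) also phosphorylate the translation factor eIF2-alpha, which slows protein synthesis while the translation of Atf4 mRNA goes up, and ATF4 then switches on amino acid enzymes and, under lasting stress, the cell death factor CHOP (Ddit3). Much of this control acts on protein or by splicing, which a gene's read count does not show.

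The promoters of several members hold the short motifs through which these pathways act. Matches before the gene start are shown for each member that had one, whether or not its level differed between groups. RefSeq windows (build GRCm38.p6, 250 bases before to 50 after the gene start) were at hand for 33 of the 36 members, all but Atf6, Ppp1r15b and Manf. The ER stress element, CCAAT and CCACG with 9 bases between them on either strand, was found in 7 of 33 members (21.2%) and in 37 of 27025 genes in all (0.137%). It is bound by ATF6 together with the factor NF-Y. Since members were chosen by known role in these pathways, their shares, here and for the ATF4 element, are a description and not a test. Each stretch is given 5′ to 3′ on the strand of the gene, with the element in capitals. It lies on the gene's own strand in 5 members and on the opposite strand in Calr and Creld2.
Hspa5 (chr2:34772005-34772063, plus strand): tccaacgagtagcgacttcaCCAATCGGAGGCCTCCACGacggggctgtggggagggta
Calr (chr8:84847055-84847113, minus strand): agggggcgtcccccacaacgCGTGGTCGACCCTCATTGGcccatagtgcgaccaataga
Canx (chr11:50325780-50325838, minus strand): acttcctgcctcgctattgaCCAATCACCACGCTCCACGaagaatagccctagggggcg
Pdia6 (chr12:17266471-17266529, plus strand): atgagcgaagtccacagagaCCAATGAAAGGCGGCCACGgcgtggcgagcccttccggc
Dnajc3 (chr14:118937807-118937865, plus strand): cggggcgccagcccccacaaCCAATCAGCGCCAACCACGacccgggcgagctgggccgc
Creld2 (chr15:88819500-88819558, plus strand): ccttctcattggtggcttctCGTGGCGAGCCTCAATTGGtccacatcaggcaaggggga
Syvn1 (chr19:6046512-6046570, plus strand): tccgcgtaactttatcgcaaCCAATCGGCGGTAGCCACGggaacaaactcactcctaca

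The ATF4 element, searched as TGATGNAAN on either strand, was found in 5 of 33 members (15.2%) and in 1215 of 27025 genes (4.5%). The members were Chac1, Asns, Nupr1 and Herpud1, shown here, and Trib3, where the match lies after the gene start. The shorter element of ATF6 and XBP1, whose last bases pair with the CCACG part of the ER stress element, was found in 0 of 33 members and in 193 genes (0.714%). These matches describe letters in a window and no binding was measured.
Chac1 (chr2:119351028-119351076, plus strand): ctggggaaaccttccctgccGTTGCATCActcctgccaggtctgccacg
Asns (chr6:7693210-7693252, minus strand): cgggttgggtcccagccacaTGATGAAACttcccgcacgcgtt
Nupr1 (chr7:126625553-126625601, minus strand): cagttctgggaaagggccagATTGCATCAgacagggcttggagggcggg
Herpud1 (chr8:94386296-94386344, plus strand): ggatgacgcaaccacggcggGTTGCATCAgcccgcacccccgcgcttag

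The libraries differed in depth and in what else the tissue held. Total estimated counts ran from 719735 in KO ethanol 1 to 17066392 in KO saline 2, with 1953154 in WT saline 1. These shallow libraries are the 2 whose names begin with the letter L. Levels are given as CPM, counts relative to the library total scaled by the TMM factors of edgeR, which ranged from 0.564 to 1.23. Trp53 was counted at 3.67 to 26.2 CPM in WT and 11.1 to 28.7 CPM in KO libraries, and since such counts include exons outside the deleted part of the gene, they do not check the genotype. The 10 markers of cortical excitatory neurons summed to 417 CPM in WT ethanol 1 and to between 820.3 and 1418 CPM in the other libraries. WT ethanol 1 also had the thalamic genes Tcf7l2 (471 CPM) and Lhx9 (174 CPM), and the choroid plexus gene Ttr at 4919 CPM, against Ttr at 2.06 to 109 CPM in WT saline. Ttr was also high in KO saline 1 (2213 CPM), KO ethanol 3 (2193 CPM) and KO saline 3 (404 CPM). The 7 detected markers of thalamus and striatum summed to 357 to 812 CPM in WT ethanol and to 104 to 192 CPM in WT saline, without overlap. KO ethanol 3 was also at 357 CPM, and the other KO libraries were at 64.7 to 171 CPM. The 5 blood cell markers, mostly haemoglobin genes, summed to 337 to 1319 CPM in the 3 WT saline libraries and to 765 CPM in KO ethanol 1, against 29.0 to 145 CPM in the other 8 libraries. In bulk tissue, fewer cells of a type and less RNA per cell cannot be told apart.

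**Figure D1:**
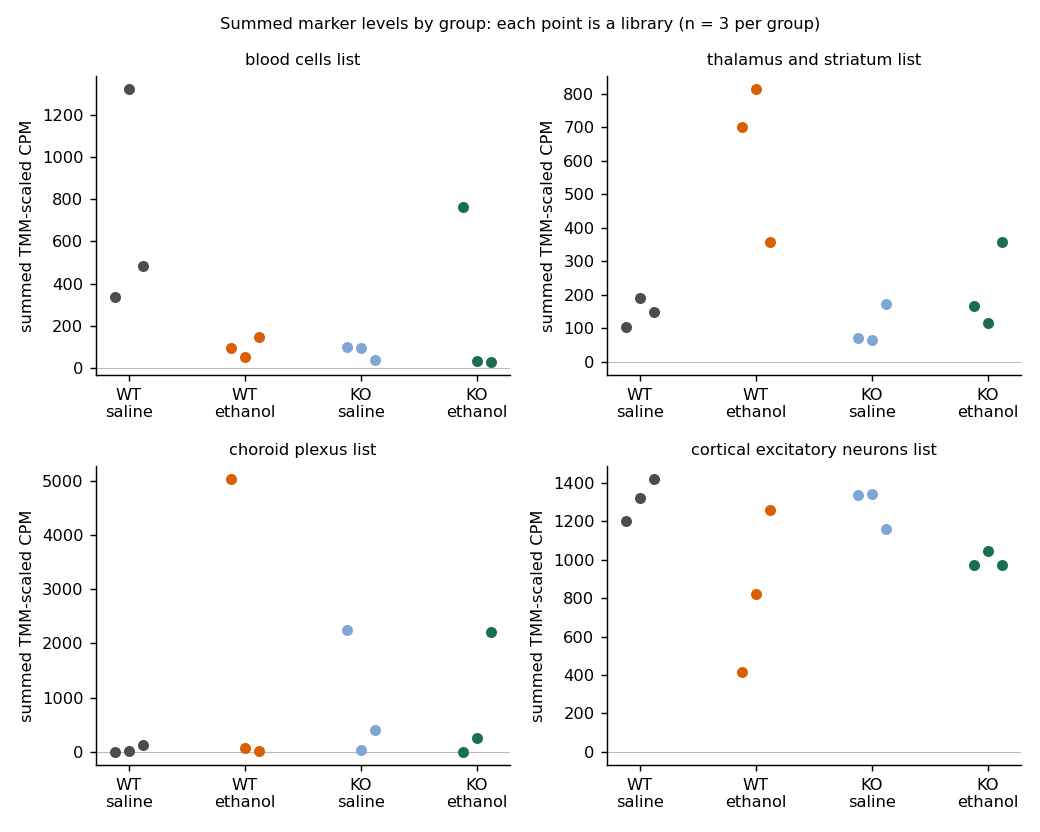
Summed level (TMM-scaled CPM, vertical axis) of 4 marker lists in each of the 4 groups, 1 point per library. Blood cell markers were highest in the 3 WT saline libraries and KO ethanol 1 (337 CPM or more). Markers of thalamus and striatum were higher in all WT ethanol libraries (357 to 812 CPM) than in all WT saline libraries (104 to 192 CPM). KO ethanol 3 was also at 357 CPM for these.

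Members were expressed over a wide range. Levels between genes are compared as RPKM, which is per length, summed over transcripts and given as the median over the 12 libraries. Calr, the ER chaperone calreticulin, stood highest at 196 RPKM, next to Atf4 at 195 RPKM. The disulfide isomerase Pdia3 (96.0 RPKM), asparagine synthetase Asns (79.0 RPKM), the chaperone BiP, Hspa5 (78.0 RPKM), and calnexin, Canx (68.1 RPKM), followed. Asns and Hspa5 overlapped over the libraries, at 52.9 to 118 and 59.2 to 148 RPKM. The lowest levels were those of the transcription factor Cebpb (0.443 RPKM), of Ern1 (0.574 RPKM) and of the pseudokinase Trib3 (0.602 RPKM). Cebpb and Trib3 had 3 or fewer counts in 4 and 3 of the libraries, so that values for them rest on few reads.

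**Figure D2:**
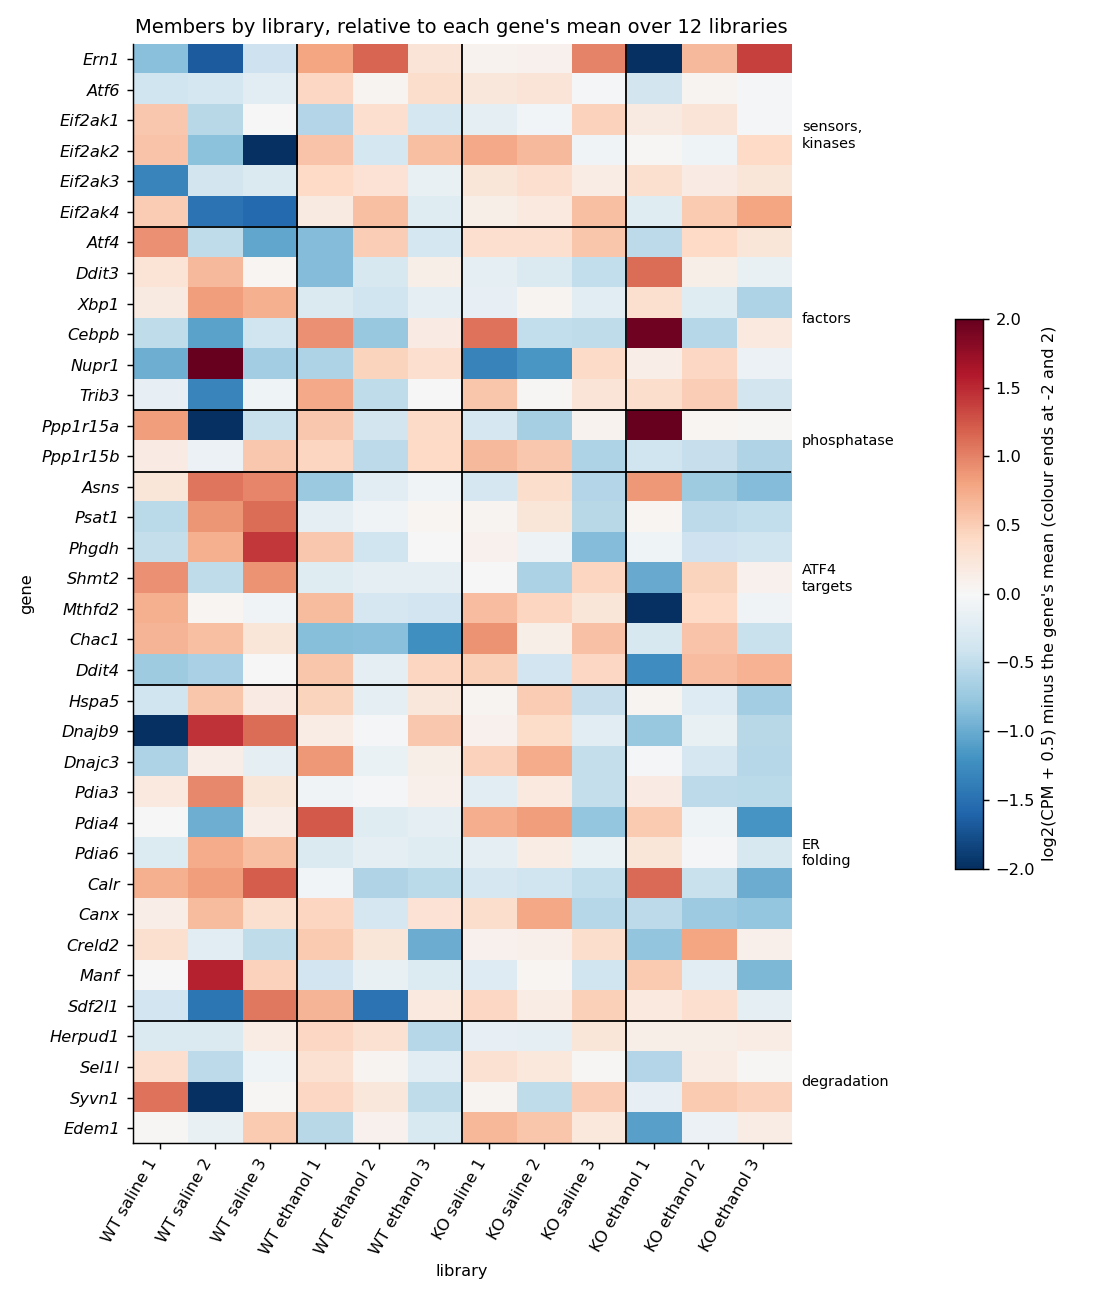
Level of each of the 36 members (rows, ordered by role) in each of the 12 libraries (columns, by group), as log2(CPM + 0.5) minus the gene's mean over the libraries. Calr and Xbp1 were above their mean in the 3 WT saline libraries and KO ethanol 1, Ern1 was below its mean in these 4 (with 0 counts in KO ethanol 1), and Chac1 was lowest in the 3 WT ethanol libraries.

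The first comparison, ethanol against saline in WT mice, asked which members the exposure changed when p53 was present. A gene is said to have risen or fallen where its adjusted p was under 0.30, the false discovery level of the study, in edgeR's quasi-likelihood test with Benjamini-Hochberg adjustment over all 14739 genes. At that level 2 members rose, the sensors Ern1 and Eif2ak3, and 5 fell, the transcription factor Xbp1, the ATF4 targets Asns and Chac1, and the ER proteins Calr and Manf. Among all genes 12.1% rose and 10.4% fell, against 5.56% and 13.9% of the members. These member shares rest on 2 and 5 genes. No member passed an adjusted p of 0.05, which 11 genes in all did. With DESeq2 in place of edgeR 1 member (2.78%) passed it, against 3.31% of all genes. At an unadjusted p under 0.05 the 7 members (19.4%) were the same, against 18.3% of all genes. The median log2 fold change was -0.13 over the members and 0.06 over all genes.

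Chac1 had the smallest p. It encodes an enzyme that breaks down glutathione, and it is a target of ATF4 and CHOP. Its level was 13.9, 13.2 and 10.2 CPM in WT saline, 4.47, 4.57 and 3.34 CPM in WT ethanol, 16.3, 9.31 and 13.0 CPM in KO saline, and 6.69, 12.9 and 6.09 CPM in KO ethanol. All WT ethanol libraries lay below all of the others, and KO saline and KO ethanol overlapped. The change in WT mice was -1.58 ± 0.44 (log2 fold change ± SE, n = 3 per group; 2.99-fold lower; unadjusted p = 0.00268, adjusted p = 0.171). It was the same in direction and past the unadjusted level in all 19 alternative fits, at -1.12 to -1.71, which include those that left out each library in turn. The count behind it was small, 26 to 137 per library in the WT libraries.

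Calr is the calcium-binding chaperone that retains glycoproteins in the ER, and its promoter holds the ER stress element shown above. It was at 724, 792 and 1030.1 CPM in WT saline and at 428, 291 and 304 CPM in WT ethanol. In KO saline it was at 350.3, 336 and 315 CPM, and in KO ethanol at 979.6, 325 and 222 CPM. The WT groups did not overlap, and KO ethanol 1 sat with the WT saline libraries. Calr fell by 1.32 ± 0.50 on the log2 scale (2.49-fold, adjusted p = 0.216). In RPKM the WT means were closer, at 268 with saline and 205 with ethanol. Of the 19 alternative fits, 14 kept the direction and the unadjusted level of Calr, and 5 kept only the direction. Its unadjusted p was above 0.05 without WT saline 3 (-1.15), WT ethanol 2 (-1.27) or WT ethanol 3 (-1.24).

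Xbp1 encodes the transcription factor that IRE1-alpha activates by splicing its mRNA. Its level was 95.6, 151 and 138 CPM in WT saline, 68.9, 63.8 and 74.0 CPM in WT ethanol, 75.0, 87.8 and 72.9 CPM in KO saline, and 105, 71.6 and 55.0 CPM in KO ethanol. As for Calr, the 4 highest libraries were the 3 WT saline libraries and KO ethanol 1. Xbp1 fell by 0.90 ± 0.33 (1.86-fold, adjusted p = 0.209). The files split Xbp1 counts between 2 transcripts, and NM_001271730, which RefSeq describes as the spliced form, took 24.4% to 46.6% of them in WT saline, 27.7% to 56.8% in WT ethanol, 32.5% to 41.1% in KO saline and 1.32% to 52.4% in KO ethanol. These shares overlapped between all groups. They come from the authors' estimate of how reads shared by both transcripts were divided, not from reads over the splice site, and the lowest, in KO ethanol 1, rests on 63 counts.

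Asns, which makes asparagine and is among the classic ATF4 targets, was at 213, 378 and 354 CPM in WT saline and at 108, 155 and 172 CPM in WT ethanol. The KO saline libraries had 142, 229 and 119 CPM and the KO ethanol libraries 328, 110.1 and 98.0 CPM. The WT groups did not overlap, and Asns fell by 1.12 ± 0.48 (2.18-fold, adjusted p = 0.240). Manf, a secreted ER protein that protects neurons, was at 61.2, 179.7 and 84.6 CPM in WT saline, 46.9, 55.2 and 50.7 CPM in WT ethanol, 51.5, 63.4 and 46.5 CPM in KO saline, and 88.6, 52.8 and 32.9 CPM in KO ethanol. It fell by 1.10 ± 0.43 (2.14-fold, adjusted p = 0.221). WT saline 2 was well above the other libraries for Manf, and without that library the change was -0.55. The unadjusted p of Manf was above 0.05 there and without WT ethanol 1 (-1.06) or WT ethanol 3 (-1.09). That of Asns was above 0.05 without WT saline 2 (-0.999), WT saline 3 (-1.03), WT ethanol 1 (-0.97) or WT ethanol 2 (-1.23).

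Ern1 was at 1.03, 0.367 and 1.56 CPM in WT saline, where 2 libraries had 2 counts each. It was at 4.25, 5.62 and 2.78 CPM in WT ethanol, 2.37, 2.40 and 4.94 CPM in KO saline, and 0, 3.79 and 6.60 CPM in KO ethanol. The WT groups did not overlap. The library at 0, KO ethanol 1, allows up to 5.01 CPM (3 counts), above most of the values in the deeper libraries. Ern1 rose by 2.0 ± 0.75 (4.01-fold, adjusted p = 0.215). Eif2ak3 was at 7.20, 14.3 and 15.2 CPM in WT saline, 24.7, 23.0 and 16.8 CPM in WT ethanol, 22.1, 23.8 and 20.8 CPM in KO saline, and 23.4, 20.9 and 22.1 CPM in KO ethanol. Only the WT saline libraries were below 16 CPM, and Eif2ak3 rose by 0.79 ± 0.36 (1.72-fold, adjusted p = 0.264). Without WT saline 2 (1.56) or WT ethanol 2 (1.69) the unadjusted p of Ern1 was above 0.05. That of Eif2ak3 was above 0.05 in 9 of the 12 fits that left out 1 library, all but those without WT saline 3, WT ethanol 3 or KO ethanol 1, and the change was 0.49 without WT saline 1.

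Transcript length went with the direction of change among the 7 members called, though not among all members, and blood markers went with the levels of some members. The members that rose have long transcripts, 6946 bases for Ern1 and 4505 for Eif2ak3, and the 5 that fell have short ones, of 1637 to 2247 bases. After removal of each library's dependence on length and GC content, Ern1 stood at 1.24 (adjusted p = 0.352) and Eif2ak3 at 0.26 (adjusted p = 0.734), so both calls were lost, while Chac1 (-1.40), Calr (-1.19), Manf (-1.0), Asns (-0.91) and Xbp1 (-0.79) fell at adjusted p of 0.149 to 0.277. At an unadjusted p under 0.05, 1 member was then higher and 8 were lower, 25% of the members against 17% of all genes. The 4 libraries with the highest blood sums were also the 4 highest for Calr and Xbp1 and the 4 lowest for Atf6, and their part in the result was not tested. The 3 WT saline libraries were below the other 8 for Ern1 too, while the place of KO ethanol 1, with 0 counts, is not known. Without TMM factors the median of all genes moved to 0.49, and at an unadjusted p under 0.05 there were then 4 higher and 1 lower member, Chac1, against 20.3% of all genes. Each of the 7 members kept its direction there, on a scale whose median gene was itself higher.

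The other members did not pass the test in WT mice. Atf6, the third sensor, was at 19.5, 20.2 and 22.4 CPM in WT saline and at 34.5, 27.1 and 33.2 CPM in WT ethanol, without overlap, but with a log2 fold change of 0.61 ± 0.31 it missed the level (adjusted p = 0.301). The groups did not overlap for 9 of 36 members (25%) and 19.5% of all genes, and these were the 7 that passed, Atf6 and Pdia3. Atf4 mRNA was at 398, 148 and 102 CPM in WT saline and at 115, 298 and 165 CPM in WT ethanol, a difference of -0.16 ± 0.50. In the KO mice it was at 266, 266 and 310.0 CPM with saline and at 147, 277 and 251 CPM with ethanol. Hspa5, the chaperone whose rise is the usual sign of ER stress, was at 184, 359 and 271 CPM in WT saline, 329.5, 214 and 286 CPM in WT ethanol, 251, 346 and 177 CPM in KO saline, and 252, 202 and 149.8 CPM in KO ethanol. On the TMM-scaled CPM the WT difference was 0.03 ± 0.39 and all 4 groups overlapped. The size of this difference depended on the scaling. It was 0.009 ± 0.39 with DESeq2 and 0.55 ± 0.33 in edgeR without TMM factors (adjusted p = 0.348). Mean RPKM of Hspa5 was higher after ethanol in WT mice (107 against 70.6) and lower in KO mice (70.8 against 98.3). Of the 11 ER chaperones and folding enzymes, 0 rose, 2 fell and the median was -0.21. Of the 7 ATF4 target enzymes and effectors, 0 rose and 2 fell (median -0.73). The serine and one-carbon enzymes among them, Psat1 (-0.73 ± 0.41), Phgdh (-0.65 ± 0.44), Shmt2 (-0.78 ± 0.45) and Mthfd2 (-0.20 ± 0.49), and the mTORC1 inhibitor Ddit4 (0.73 ± 0.45), were not called. None of the 4 genes of ER-associated degradation passed. Herpud1, Sel1l, Syvn1 and Edem1, which carry misfolded proteins out of the ER for destruction, lay between -0.41 and 0.23. The eIF2-alpha phosphatase subunits Ppp1r15a (0.43 ± 0.67) and Ppp1r15b (-0.06 ± 0.39), which reverse the kinases' signal, did not pass.

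**Figure D3:**
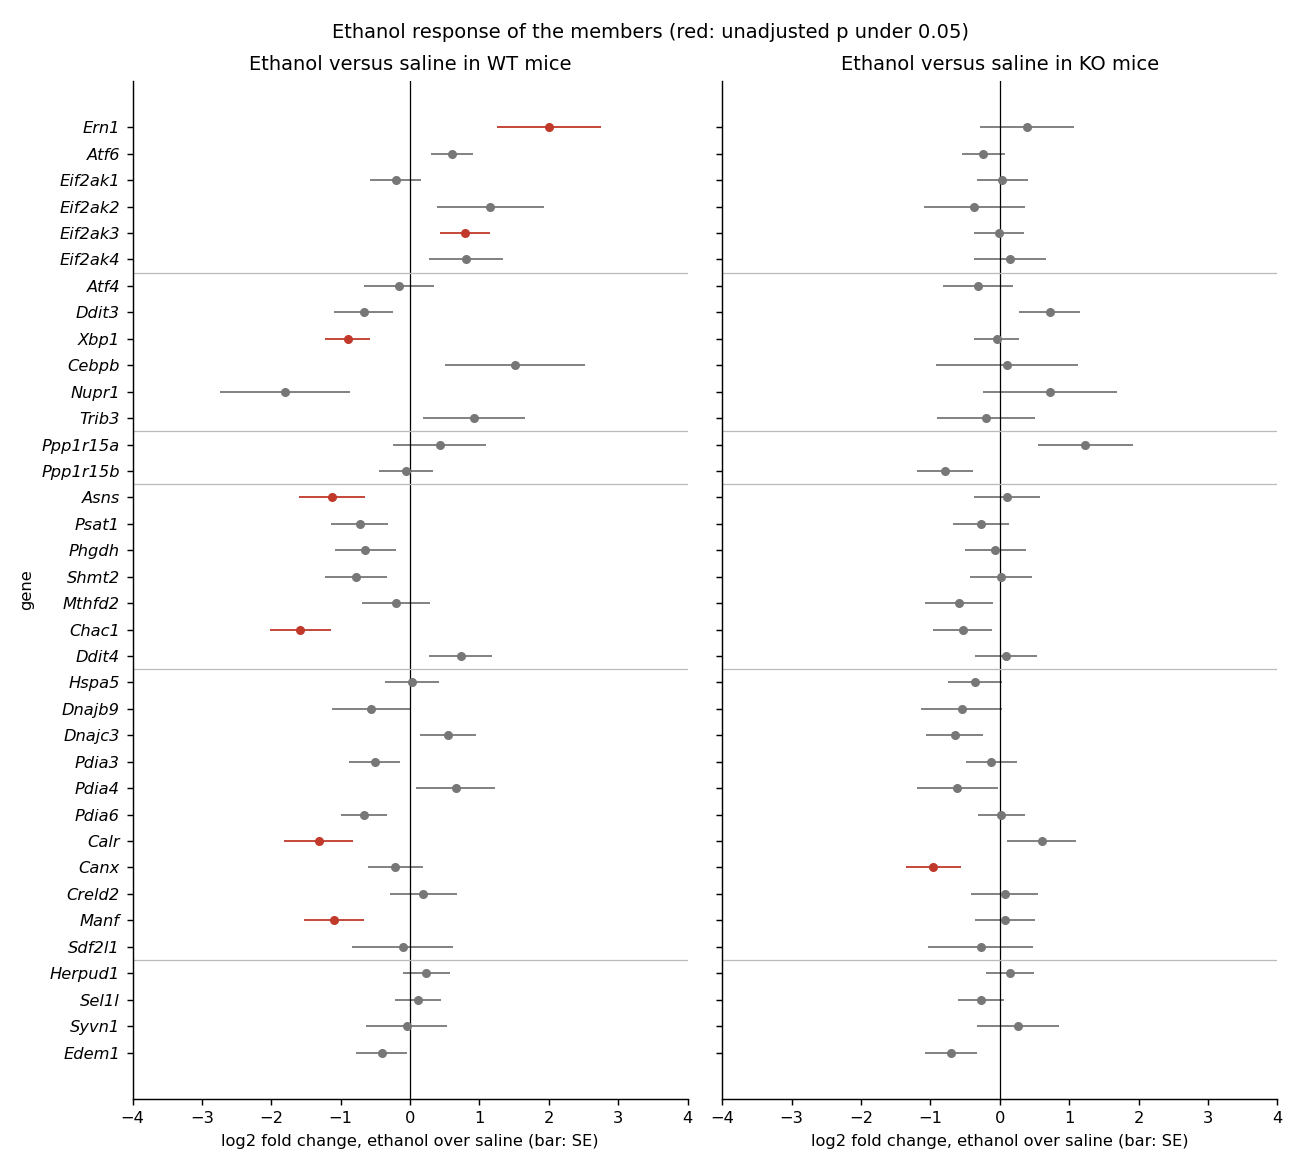
Log2 fold change of ethanol over saline (horizontal axis, point, with its SE as a bar) of the 36 members in WT mice (left) and in KO mice (right), with genes ordered by role and an unadjusted p under 0.05 in red. In WT mice 2 sensors lay above 0 and 5 members below it in red, and in KO mice only Canx did, at -0.96.

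**Figure D4:**
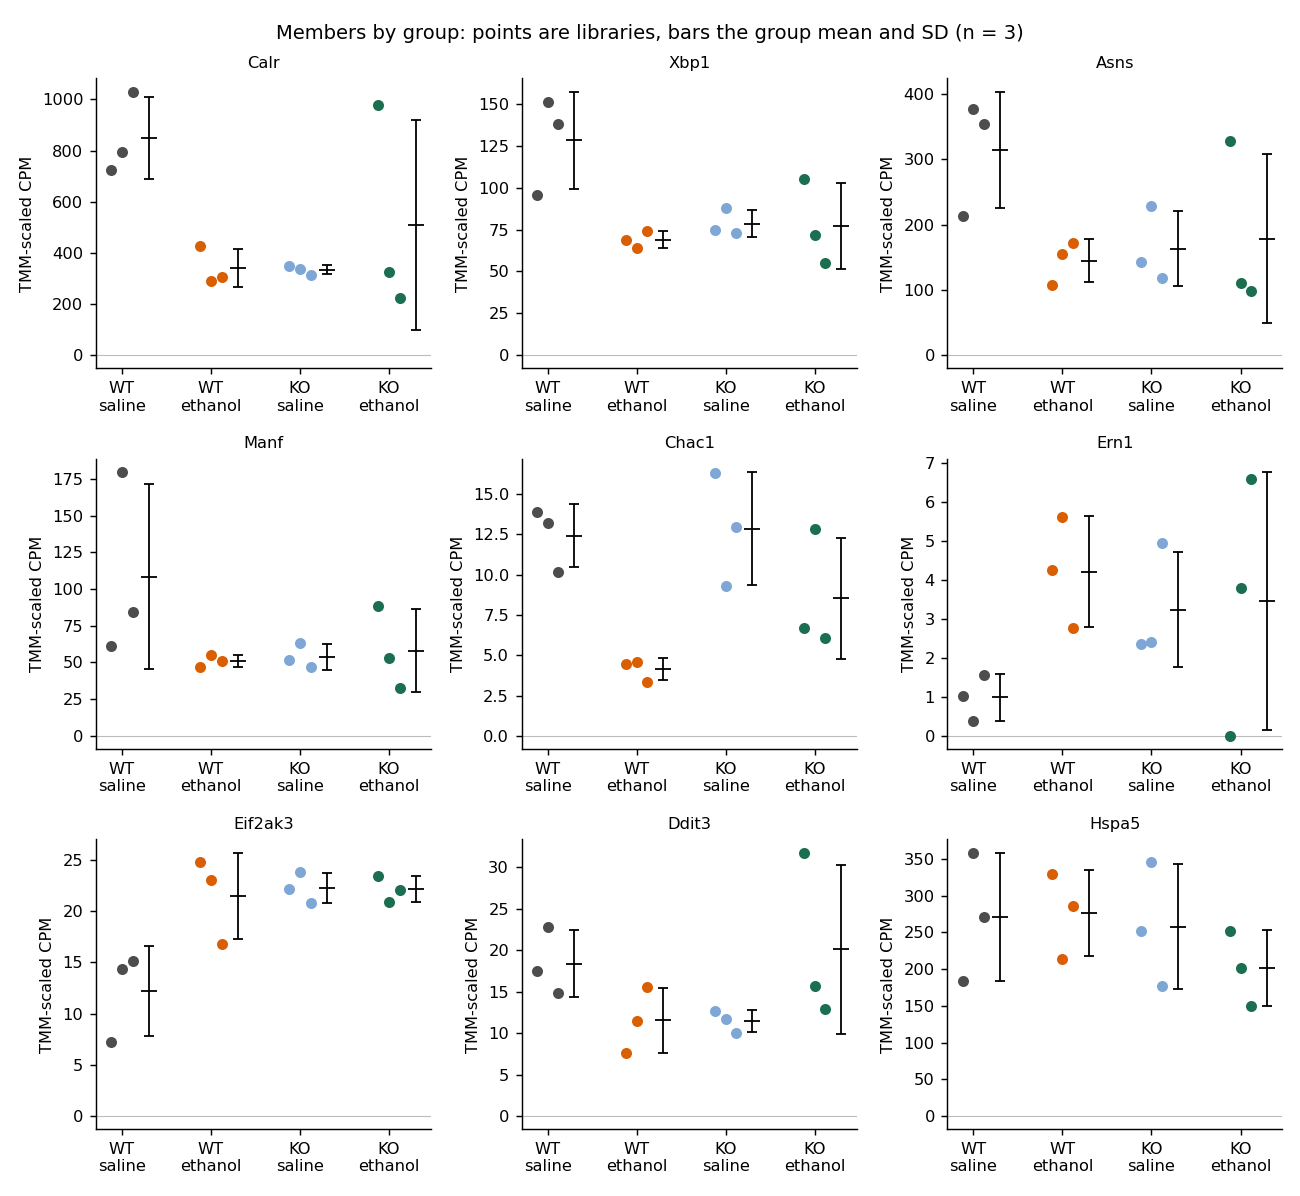
TMM-scaled CPM (vertical axis) of 9 members in each library (points) of the 4 groups, with the mean and SD (n = 3) beside them. The 3 WT ethanol libraries were lowest for Chac1 (3.34 to 4.57 CPM), and for Calr the WT saline libraries and KO ethanol 1 were at 724 CPM or more with all others at 428 CPM or less.

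In KO mice, the comparison of ethanol with saline asked whether the members changed when p53 was absent. At the adjusted level of 0.30 no member passed, nor did any of the 14739 genes, and the lowest adjusted p was 0.999. At an unadjusted p under 0.05 1 member (2.78%) was found, against 3.15% of all genes. This was Canx, the membrane-bound partner of calreticulin. Canx was at 395, 527 and 207 CPM in KO saline and at 214, 187 and 181 CPM in KO ethanol, with a log2 difference of -0.96 ± 0.40 (adjusted p = 0.999). KO saline 3 lay among the KO ethanol libraries. The unadjusted p was above 0.05 without KO saline 1 (-0.90), KO saline 2 (-0.64), KO ethanol 2 (-0.90) or KO ethanol 3 (-0.88). In WT mice Canx was at 337, 481 and 385 CPM with saline and at 416, 244 and 378 CPM with ethanol. With the length and GC trend removed, 0 members were at an unadjusted p under 0.05 in KO mice. For the 7 members called in WT mice, the KO differences were 0.39 ± 0.68 for Ern1, -0.01 ± 0.36 for Eif2ak3, -0.04 ± 0.33 for Xbp1, 0.11 ± 0.47 for Asns, -0.54 ± 0.43 for Chac1, 0.60 ± 0.49 for Calr and 0.07 ± 0.43 for Manf. Groups did not overlap for 2 members, Ddit3 and Edem1 (5.56%), against 10.8% of all genes. Ppp1r15a, also called GADD34, was at 71.9 CPM in KO ethanol 1 and at 3.67 to 30.9 CPM in the other libraries, and its KO difference was 1.24 ± 0.68 (adjusted p = 0.999).

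KO ethanol 1 held 719735 counts in all, so its values carry the largest counting error of the 12 libraries. DESeq2 placed 2 genes in all at an adjusted p under 0.05 in this comparison, and none of them was a member. It gave 2 members at an unadjusted p under 0.05 (5.56%, against 3.96% of all genes).

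Under saline, KO mice were set against WT mice to find differences between the genotypes without ethanol. Blood cell markers differed in the same direction as Calr and Xbp1, at 337 to 1319 CPM in WT saline and 35.9 to 99.3 CPM in KO saline, and their part in these results was not tested. At the adjusted level of 0.30, 2 members were higher in KO mice, Ern1 and Eif2ak3, and 6 were lower, Xbp1, Nupr1, Asns, Phgdh, Calr and Manf. Of all genes, 12.4% were higher and 13.4% lower, against 5.56% and 16.7% of the members. In the fit to all 12 libraries no member passed an adjusted p of 0.05, which 8 genes did. At an unadjusted p under 0.05 there were 7 members (19.4%) and 19.6% of all genes, and groups did not overlap for 8 members (22.2%) and 22.9% of all genes. The comparison shares the 3 WT saline libraries with ethanol against saline in WT mice, so the lists of both are not independent, and the values of each are given side by side. Calr differed by -1.35 ± 0.50 here and by -1.32 there, Manf by -1.01 ± 0.43 and -1.10, Asns by -0.95 ± 0.47 and -1.12, Xbp1 by -0.71 ± 0.32 and -0.90, Ern1 by 1.63 ± 0.74 and 2.0, and Eif2ak3 by 0.83 ± 0.36 and 0.79. Adjusted p lay between 0.187 for Calr and 0.280 for Asns. The unadjusted p of Asns in the quasi-likelihood test was 0.0651, and the saline groups overlapped for Asns and Manf. Calr stood at -1.18, with an unadjusted p above 0.05, without WT saline 3, and Manf at -0.46 without WT saline 2. Xbp1, Eif2ak3 and Ern1 were above 0.05 in 9, 7 and 6 of the 12 fits that left out 1 library, at their smallest -0.59 without WT saline 2, 0.56 without WT saline 1 and 1.16 without KO saline 3.

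Chac1 did not go with them, with 0.06 ± 0.42 between KO and WT mice under saline. Phgdh, the first enzyme of serine synthesis, was at 60.2, 137 and 223 CPM in WT saline, 122, 63.2 and 84.0 CPM in WT ethanol, 89.1, 78.3 and 45.8 CPM in KO saline, and 78.6, 62.9 and 63.8 CPM in KO ethanol. The saline groups overlapped, since WT saline 1 was below 2 of the KO libraries, and the difference was -0.98 ± 0.44 (adjusted p = 0.243), or -0.47 without WT saline 3. Nupr1, a small stress-induced chromatin protein, was at 2.06, 46.1 and 2.60 CPM in WT saline and at 1.49, 1.76 and 6.05 CPM in KO saline. With ethanol it was at 2.77, 6.32 and 5.84 CPM in WT and at 5.01, 6.24 and 4.12 CPM in KO mice. The difference of -2.46 ± 0.96 (adjusted p = 0.198) rested on WT saline 2, and without that library it was 0.35. Without TMM factors the median of all genes again moved, to 0.49, and 4 members were then higher and 0 lower at an unadjusted p under 0.05 (11.1%, against 20.3% of all genes). With the length and GC trend removed, 3 members were at that level, all lower (8.33%, against 16% of all genes).

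After ethanol, KO mice differed from WT mice in 1 member at an unadjusted p under 0.05 (2.78%, against 3.24% of all genes) and in no gene at an adjusted p under 0.30. The member was Chac1, with 4.13 ± 0.686 CPM in WT ethanol and 8.55 ± 3.75 CPM in KO ethanol (mean ± SD, n = 3 each) and without overlap of the groups. The log2 difference was 1.10 ± 0.44 (adjusted p = 0.982), and its unadjusted p was above 0.05 without KO ethanol 2 (0.65) or WT ethanol 3 (0.97). For KO ethanol 1 the Chac1 level rests on 4 counts. Groups did not overlap for 4 members (11.1%) and 12.7% of all genes, the others being Atf6, Dnajb9 and Canx, all lower in KO mice. Dnajb9, a co-chaperone of BiP, was at 28.8, 25.3 and 38.0 CPM in WT ethanol and at 15.0, 23.2 and 17.6 CPM in KO ethanol (-0.69 ± 0.59).

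The main effects and the interaction used all 12 libraries. For Treatment, Ern1 (1.20 ± 0.50) and Chac1 (-1.06 ± 0.31) were the 2 members at an unadjusted p under 0.05 (5.56%, against 7.09% of all genes), with adjusted p of 0.694 and 0.604. Chac1 was at that level in all 12 fits that left out 1 library, and Ern1 was above it in 6, without WT saline 2 (0.97), WT ethanol 2 (1.04), KO saline 1 (1.08), KO saline 2 (1.10), KO ethanol 2 (1.21) or KO ethanol 3 (0.87). For Genotype, Phgdh (-0.69 ± 0.31, adjusted p = 0.623) was the 1 member (2.78%, against 7.67%). Its unadjusted p was above 0.05 in 8 of the 12 such fits, all but those without WT saline 1, WT ethanol 2, KO saline 1 or KO ethanol 1, and the difference was -0.44 without WT saline 3. For the Genotype x Treatment interaction, where a positive value is a higher ethanol effect in KO than in WT mice, there were 2 members (5.56%, against 15.2% of all genes). At an adjusted p under 0.30 there was 1, Calr, against 11.1% of all genes. The interaction of Calr was 1.92 ± 0.70 (adjusted p = 0.265), and without KO ethanol 1 it was 1.03 and no longer at an unadjusted p under 0.05. Without TMM factors the median interaction of all genes moved from -0.11 to -0.52, and 0 members were then higher and 4 lower at that level (11.1%, against 15.6% of all genes). Ddit3, which encodes CHOP, was at 17.5, 22.8 and 14.9 CPM in WT saline, 7.64, 11.4 and 15.6 CPM in WT ethanol, 12.6, 11.7 and 10.0 CPM in KO saline, and 31.8, 15.7 and 12.9 CPM in KO ethanol. The KO groups did not overlap and the WT groups did. Its differences were -0.67 ± 0.42 in WT mice and 0.72 ± 0.43 in KO mice, and the interaction was 1.39 ± 0.61 (unadjusted p = 0.0373, adjusted p = 0.306). The unadjusted p was above 0.05 without KO ethanol 1 (0.99), WT saline 2 (1.21), WT ethanol 1 (1.20), WT ethanol 2 (1.45), KO saline 2 (1.40) or KO saline 3 (1.37). The shortest transcript of the members is that of Nupr1, with Ddit3 next at 890 bases, and with the length and GC trend removed the interaction of Ddit3 was -0.033.

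**Figure D5:**
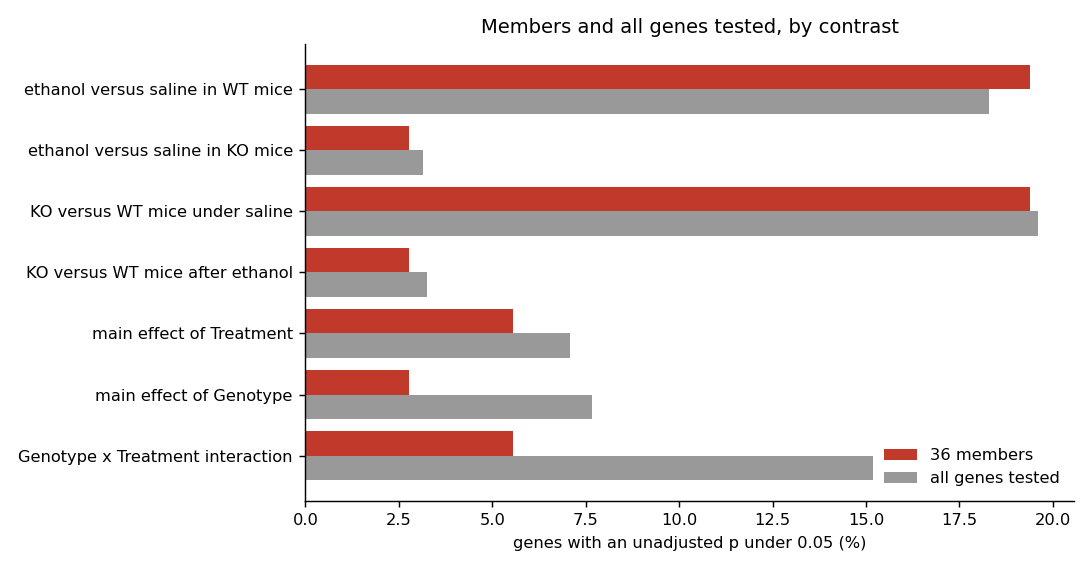
Percent of genes with an unadjusted p under 0.05 (horizontal axis) in each of 7 contrasts, for the 36 members (red) and for all 14739 genes tested (grey). The bars were close in the 4 comparisons of 2 groups (19.4% and 18.3% for ethanol in WT mice), and the members were at 5.56% against 15.2% for the interaction.

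The number of calls was also taken without the 2 libraries named with L, WT saline 1 and KO ethanol 1. In WT mice 15 members were then at an unadjusted p under 0.05 (4 higher, 11 lower), 41.7% against 37.3% of all genes. At an adjusted p under 0.05 there were 9 (25%, against 21.5% of all genes), in a fit with 2 WT saline libraries. The 9 were Calr (-1.50 ± 0.31), Eif2ak4 (1.73 ± 0.36), Xbp1 (-1.15 ± 0.26), Asns (-1.41 ± 0.34), Manf (-1.46 ± 0.36), Psat1 (-1.16 ± 0.29), Pdia6 (-0.995 ± 0.263), Chac1 (-1.58 ± 0.43) and Dnajb9 (-1.14 ± 0.31). Eif2ak4, the kinase that senses uncharged tRNA, was at 28.3 CPM in WT saline 1 and at 6.80 and 6.39 CPM in the other WT saline libraries, against 16.7 to 30.2 CPM in WT ethanol. In KO mice, 1 member, Canx, was at an unadjusted p under 0.05 in that fit, as in the fit to all libraries. Between KO and WT mice under saline, 11 members were at an adjusted p under 0.05 without the 2 libraries (30.6%, against 25.3% of all genes). For Treatment there were 6 (16.7%, against 8.22% of all genes) and for Genotype 6 (16.7%, against 16.2%).

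Other genes of the same pathways were followed in 6 lists of 105 genes, of which 103 were tested. In WT mice 4 of the 103 were higher and 9 lower with ethanol than with saline at the adjusted level of 0.30. These are 3.88% and 8.74%, against 12.1% and 10.4% of all genes. Markers of blood cells and of thalamus and striatum also differed between these groups, and their part was not tested. Among ER folding and transport genes, Ssr2 (-1.50 ± 0.51) and Sec61b (-1.43 ± 0.52), parts of the translocation channel and its helpers, fell, and Hyou1 (0.96 ± 0.45), a large ER chaperone, rose. Among genes of ER-associated degradation, the ubiquitin ligase Rnf5 (-1.11 ± 0.34) and the conjugating enzyme Ube2j1 (-0.98 ± 0.40) fell and Ubxn4 (0.90 ± 0.37) rose. Of 25 other ATF4 targets, 2 rose and 3 fell. The translation repressor Eif4ebp1 (-1.12 ± 0.43), the amino acid transporter chain Slc3a2 (-0.91 ± 0.38) and the serine enzyme Psph (-1.14 ± 0.49), named after its value was seen, fell, and Sesn2 (2.10 ± 0.83) and the growth factor Vegfa (1.31 ± 0.54) rose. Of 20 cytosolic aminoacyl-tRNA synthetases, Gars (-1.02 ± 0.45) fell, and the median of the list was -0.42. Of 8 subunits of eIF2 and its exchange factor eIF2B, Eif2b5 (-0.80 ± 0.39) fell. None of 10 other regulators of the unfolded protein response passed. In KO mice 0 of the 103 passed the adjusted level, and 3 were at an unadjusted p under 0.05 (2.91%, against 3.15% of all genes), Dnajc10 (-0.74 ± 0.34), Edem3 (-0.76 ± 0.35) and the receptor gene Vldlr (-0.88 ± 0.40). Between KO and WT mice under saline, 7 were higher and 18 lower in KO mice, 6.8% and 17.5% against 12.4% and 13.4% of all genes. The ER folding and transport list held 1 of the higher genes and 7 of the lower ones, led by Sec61b (-1.71 ± 0.53) and Ssr2 (-1.50 ± 0.51), and again rests on the same WT saline libraries.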

How the data were processed

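Per the labels and the methods of the study, the authors kept reads of quality 30 or more and aligned them to mm10 with Bowtie2 inside TopHat. RefSeq transcripts were then counted with Partek Flow, whose version is not given in the sources used here. Estimated counts, fractional and unscaled, and RPKM were deposited separately for each library. At 99.7% of 20504 ranks the sorted RPKM values deposited for the 12 libraries were equal within 0.1%, so they had also been brought to a common distribution. Counts were summed per symbol, rounded and analysed with edgeR 4.0.16 (R 4.3.3; filterByExpr, TMM, quasi-likelihood test, 1 mean per group) in 7 two-sided contrasts, and SE was derived from the F statistic. Alternatives used DESeq2 1.42.0, limma 3.58.1 on log2(RPKM + 1) and other settings given in the closing section. The code was tested on simulated data. Depth limits the precision most in the shallowest library, where 3 counts equal 5.01 CPM.

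Members, gene lists and tests were chosen with earlier results of these data known. Values in every library were to be given for Atf4, Ddit3, Hspa5, Xbp1 and each member at an unadjusted p under 0.05 in any contrast. Other members with such values were picked after these were seen. Of the other pathway lists, up to 4 genes with the smallest p were named. Lengths and GC content came from GENCODE transcripts, promoter sequences from RefSeq.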

Additional observations from a re-analysis of the deposited data

Results flagged for a closer look

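The ethanol effect differed between genotypes at an unadjusted p under 0.05 for 2 members, by the interaction term of edgeR's quasi-likelihood test, which is 5.56% of the members against 15.2% of all genes. For Calr the interaction was 1.92 ± 0.70 (log2, adjusted p = 0.265), with KO ethanol 1 at 979.6 CPM against 325 and 222 CPM in the other KO ethanol libraries. For Ddit3 it was 1.39 ± 0.61 (adjusted p = 0.306), with KO ethanol 1 at 31.8 CPM, a level that rests on 19 counts. By limma on log2(RPKM + 1) the interaction of Calr was 0.37, and without TMM factors it was 1.30 with an unadjusted p above 0.05. For Ddit3 it was 0.87 without TMM factors, 0.87 for the transcript with the highest total count, 1.08 without the 2 libraries named with L and -0.033 with the length and GC trend removed, each with an unadjusted p above 0.05.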

How the results depend on the processing

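The main numbers of members at an unadjusted p under 0.05 are given here with the share of all genes at that level in brackets. They were 7 for ethanol in WT mice (18.3%) and 1 for ethanol in KO mice (3.15%). For KO against WT mice they were 7 under saline (19.6%) and 1 after ethanol (3.24%). Treatment had 2 (7.09%), Genotype 1 (7.67%) and the interaction 2 (15.2%). Without TMM factors there were 4 under saline (20.3%), 2 after ethanol (2.69%), 2 for Genotype (7.54%) and 4 for the interaction (15.6%). DESeq2 gave 9 for ethanol in WT mice (21.3%), 2 for ethanol in KO mice (3.96%) and 2 for KO against WT mice after ethanol (4.17%). The transcript with the highest total count gave 2 after ethanol (2.84%), 2 for Genotype (7.69%) and 1 for the interaction (15.2%). Limma on log2(RPKM + 1) gave 2 for ethanol in WT mice (11.7%), 1 under saline (12.2%), 3 after ethanol (4.75%) and 0 for Genotype (5.62%). Without the 2 libraries named with L there were 15 for ethanol in WT mice, 14 under saline, 2 after ethanol, 15 for Treatment, 12 for Genotype and 7 for the interaction. In that fit the shares of all genes were 37.3%, 39.2%, 6.35%, 30.6%, 34.2% and 21.4% in the same order. With the length and GC trend removed there were 0 for ethanol in KO mice (1.34%), 3 under saline (16%) and 0 after ethanol (2.68%). There were then 4 for Treatment (8.96%) and 1 for the interaction (8.98%), where that of Ddit3 turned to -0.033. The causes of these shifts were not tested.

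Leaving out each library in turn gave 3 to 13 members for ethanol in WT mice, 0 to 3 for ethanol in KO mice, 2 to 12 under saline, 0 to 2 after ethanol, 1 to 12 for Treatment, 0 to 7 for Genotype and 1 to 9 for the interaction. The highest numbers for ethanol in WT mice, under saline, for Treatment, Genotype and the interaction came without WT saline 1, the second shallowest library, where 31.7%, 33.6%, 18.9%, 22.9% and 23.6% of all genes were at that level. Over these fits the share of all genes ran from 9.5% to 31.7% for ethanol in WT mice and 0.319% to 7.6% for ethanol in KO mice. It ran from 11% to 33.6% under saline and 1.84% to 4.92% after ethanol. For Treatment it was 3.53% to 18.9%, for Genotype 3.68% to 22.9% and for the interaction 9.8% to 23.6%. Nupr1 under saline ranged from -3.42 to 0.35, the latter without WT saline 2. In WT mice Chac1 and Xbp1 kept an unadjusted p under 0.05 in all 12 such fits, while Eif2ak3 lost it in 9. Of 417 values of members under alternatives, 283 kept direction and side of the threshold, 127 lost it, 5 gained it and 2 reversed. No paired analysis was possible because the replicate numbers were given in accession order and do not link libraries.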
